A study of Homo sapiens with 8 samples.

Results

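Lung cancer spheres of EBC1 and H820, the lines with the higher MET level, were set against spheres of H23 and H1975, the lines with the lower level. All 8 of the 8 libraries of the series took part, 4 in each pair of lines. The lines were grouped by their measured MET level, so MET itself and its neighbours are described below with no test. All 4 are established lines of non-small cell lung cancer. H820, H23 and H1975 are labelled adenocarcinoma and EBC1 squamous. Each line gave 1 library of untreated spheres and 1 of spheres kept for 15 min without serum in 25 µg/ml PD-L1s, the soluble version of the PD-L1 checkpoint protein made synthetically. Every group had been grown as floating spheres in serum-free medium with B-27 and growth factors of the fibroblast and epithelial types, so added ligand of the EGF and FGF receptors was common to all libraries. A pair of lines is 2 tumours, and any trait that EBC1 and H820 share and the others lack cannot be told apart from the MET level.

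MET is a receptor tyrosine kinase of epithelial cells. Its ligand HGF is made mainly by stromal cells as an inactive precursor and is cut by membrane and plasma proteases. The active receptor recruits the docking protein GAB1 and, through it and GRB2, the RAS, PI3K and STAT pathways, which drive cell scattering and invasion. EBC1 and H820 are known for extra copies of the MET gene.

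Depth was uneven. The untreated libraries of EBC1 and H820 held 5894946 and 5559870 counts, and the other 6 held 15563010 to 27524854. Treated to untreated depth ratios were 4.67 for EBC1 and 4.28 for H820, so counting error was largest in those 2 libraries. Markers of the labelled types were examined. The squamous marker TP63 was low in EBC1, at 0.192 and 0.314 CPM (counts scaled to library totals of 10 to the power 6 with TMM factors). KRT5 and DSG3 had 0 counts in both EBC1 libraries. KRT5 had at most 1 count in any library, and DSG3 passed 1 count only in H1975 (3 and 23), so these zeros do not set EBC1 apart. SOX2, another squamous marker, is not reported here. Of 9 squamous genes tested, 2 were called higher and 6 lower in EBC1 and H820. The label itself was therefore not judged. TP63, the master regulator of squamous cells, was instead at 87.2 and 86.7 CPM in H1975, which is labelled adenocarcinoma. NKX2-1, the lung adenocarcinoma lineage factor, was at 35.6 and 54 CPM in H820, 78.4 and 75.2 in H1975, 5.46 and 5.68 in H23, and 0 and 0.224 in EBC1. H23 stood apart in the epithelial genes, with 2.01 and 1.66 CPM of CDH1 (E-cadherin) against at least 331.6 CPM in every library of the other lines. PTPRC, the leukocyte antigen CD45, had at most 8 counts in a library.

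MET (ENSG00000105976.14_3, chromosome 7 from 116312446 to 116438440, GRCh37) was at 6789 CPM in untreated and 7607 CPM in treated EBC1 (pairs of values are given in this order throughout), 1177 and 1706 in H820, 477 and 514 in H1975, and 59.9 and 63.2 in H23. The 4 lines were well apart from each other. The mean level of EBC1 was 4.99-fold that of H820, H820 was 2.91-fold H1975, and H1975 was 8.05-fold H23, so the step between the pairs was the smallest of the 3. The lowest EBC1 or H820 library was 2.29-fold the highest H23 or H1975 library. MST1R, the MET relative also called RON, overlapped between the pairs, with 49.8 and 70.5 CPM in EBC1, with 16.1 and 19.6 in H820, 46.0 and 40.7 in H1975 and 1.93 and 2.82 in H23. HGF was detected in H23, at 57.4 and 75.2 CPM, and had 0 counts in all 6 libraries of the other lines. MST1, the ligand of RON, overlapped, with 2.88 to 9.38 CPM over the 8 libraries. EGFR did not follow MET: it was highest in H1975, at 565 and 570 CPM, against 246 and 262 in EBC1, against 223 and 272 in H820 and against 52.9 and 57.0 in H23.

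Within 2 Mb of MET, 13 protein-coding genes were tested and 5 were higher in every EBC1 and H820 library: MET, CAPZA2, ST7, CTTNBP2 and LSM8. Among all protein-coding genes the share was 9.18%, and MET is one of the 5 because the lines were grouped by it. CAPZA2, a subunit of the actin-capping protein that lies next to MET, was at 904 and 911 CPM in EBC1, at 190 and 249 in H820, 180 and 169 in H1975 and 82.6 and 84.5 in H23. CAV1, the main coat protein of caveolae on the other side of MET, overlapped, with 1803 and 1931 CPM in EBC1 but 18.3 and 44.6 in H820, below the 255 and 262 of H1975.

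**Figure D1:**
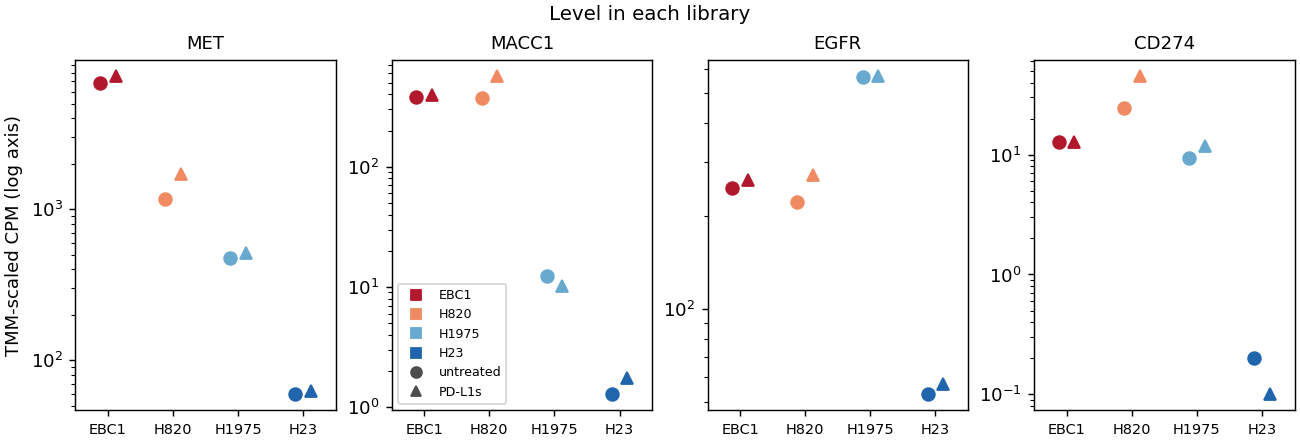
TMM-scaled CPM on a log axis (each panel has its own scale) of MET, MACC1, EGFR and CD274 in each of the 8 libraries; circles are untreated and triangles PD-L1s libraries. MET falls stepwise from EBC1 to H23, MACC1 splits the pairs by a wide margin, EGFR is highest in H1975, and CD274 of EBC1 (12.7 and 12.8 CPM) lies just above that of H1975 (9.30 and 11.8).

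The comparison asks which transcripts set both higher-MET lines apart from both others. A gene was called at an adjusted p under 0.05 in edgeR's quasi-likelihood test, and was said to separate the pairs if it was called and all 4 EBC1 and H820 libraries lay on the same side of all 4 H23 and H1975 libraries. Of 24185 genes tested, 12731 were called (52.6%), 6155 higher (25.4%) and 6576 lower (27.2%) in EBC1 and H820. Most of these calls, 8649 or 67.9%, did not separate the pairs. The separating genes were 1870 higher (7.73%) and 2212 lower (9.15%), and among 15798 protein-coding genes 1451 higher (9.18%) and 1556 lower (9.85%). Without the shallow untreated libraries of EBC1 and H820 these became 2881 and 2973, from fewer libraries that have to be in order. With library size alone as the scale, which shifts the median log2 difference of all genes from -0.07 to -0.34, 1144 genes were higher and 3303 lower, and the higher share of all calls went from 48.3% to 31.3%. These calls rest on how far the 2 libraries of each line differ, which is not the spread over tumours: with the line as the replicate (n = 2 against 2) edgeR called 0 genes, with 957 at an unadjusted p under 0.05.

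The separation was often narrow. The gap, meaning the smallest of the 4 log2 differences between a line of each pair, had a median of 0.63 over the higher genes and -0.78 over the lower ones, and it passed 1 in 547 and 882 genes. Of the 1870 higher genes, 909 were higher in EBC1 than in H820 and 961 the other way round, and 520 had the order of MET over all 4 lines. The genes just inside the limit were ARSJ and TMA16, and CTSH and CDC37 on the lower side. For ARSJ the lowest EBC1 or H820 library had 14.1 CPM and the highest H23 or H1975 library had 14.1 as well. Just outside were ATP5L, KIF3B, NPEPL1 and SPECC1L-ADORA2A, with ATP5L at 40.3 CPM in both of the libraries that decide it.

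Genes among the 12 protein-coding ones with the widest positive gap are described next. MACC1, known as a transcriptional activator of MET in colon cancer, lies on chromosome 7 from 20174278 to 20257027, far from MET (ENSG00000183742.12_3). It was at 380 and 392 CPM in EBC1, at 369 and 568 in H820, 12.3 and 10.2 in H1975, and 1.28 and 1.76 in H23. Treated H820 was the highest of the 4 higher-MET libraries and the other 3 were alike, and the nearest lines differed 34.4-fold. The log2 difference between the pair means was 6.68 ± 0.18 (SE, 2 lines against 2, with 2 libraries each). Here and for other genes in this contrast, the SE reflects the spread between libraries of a line, not between lines. The 4 line-by-line differences of MACC1 ran from 5.09 to 8.26. TOX3, a chromatin-associated factor, was at 2.31 and 3.36 CPM in EBC1, at 93.7 and 74.0 in H820, and at 0 counts in all 4 H23 and H1975 libraries. With 3 counts over both libraries of a line as the floor, its nearest lines were at least 41.7-fold apart. FOXA1, the pioneer factor of lung and gut epithelium, was at 33.8 and 44.1 CPM in EBC1, at 97.6 and 137 in H820, 0.873 and 1.18 in H1975, and 3.97 and 4.22 in H23. Its partner FOXA2 did not separate the pairs, with 17.3 and 24.2 CPM in EBC1, with 15.0 and 15.1 in H1975, and no more than 0.325 in H820 and H23. CNTN1, a neural adhesion molecule, had 22.1 and 21.2 CPM in EBC1 and 11.5 and 11.5 in H820, against at most 0.201. FAM83B, an adaptor in EGFR and RAS signalling, was at 25.1 to 39.2 CPM in the 4 higher-MET libraries and at most 0.855 in the others. KCNK1, a potassium channel, was at 26.3 to 54.6 CPM against at most 0.964. Other high-ranked genes were SDR42E1, PLEKHG7, BTBD11, TMEM71, CXCL3 and VNN3.

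At the other end, PEG3, BNC2, ZNF730, ANK1, ROR2, UCHL1 and ZNF727 of the 12 genes had 0 counts in all 4 EBC1 and H820 libraries. The fitted gap is not limited by the floor of 3 counts, so the ranking favours genes with 0 counts in a pair. ZNF727 had a gap of -6.80, but H23, at 0.883 and 0.553 CPM, was only at least 6.57-fold above the floor. Likewise PLEKHG7 of the higher genes had a gap of 6.85 but was at least 13.1-fold above it. PEG3, an imprinted zinc finger gene that shares exons with ZIM2, was at 19.1 and 18.8 CPM in H1975 and 14.2 and 13.4 in H23, at least 126-fold above the floor. BNC2, a zinc finger protein of mesenchymal cells, was at 25.4 and 24.3 CPM in H1975 and 11.9 and 11.4 in H23. ROR2, a receptor for WNT5A, was at 2.88 and 2.59 CPM in H1975 and 22.6 and 23.6 in H23. UCHL1, a neuronal deubiquitinase, was at 2.23 and 2.92 in H1975 and 142 and 141 in H23. SLC2A3, the high-affinity glucose transporter GLUT3, had 301 and 324 CPM in H1975 and 343 and 335 in H23, against 3.07 and 2.15 in EBC1 and 0 and 0.139 in H820. CDH11, a mesenchymal cadherin, was at 4.90 to 16.6 CPM in H1975 and H23 and had at most 0.0465 CPM in EBC1 and H820. SLITRK6, RGS6 and GRAMD1B completed the set. Of the 2212 lower genes, 111 had 0 counts in every EBC1 and H820 library, and of the 1870 higher genes 17 had 0 counts in every H23 and H1975 library. Such genes passed the filter only through the pair where they are high. The EBC1 and H820 libraries include the 2 shallow ones, so nothing is read from the difference between these counts.

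**Figure D2:**
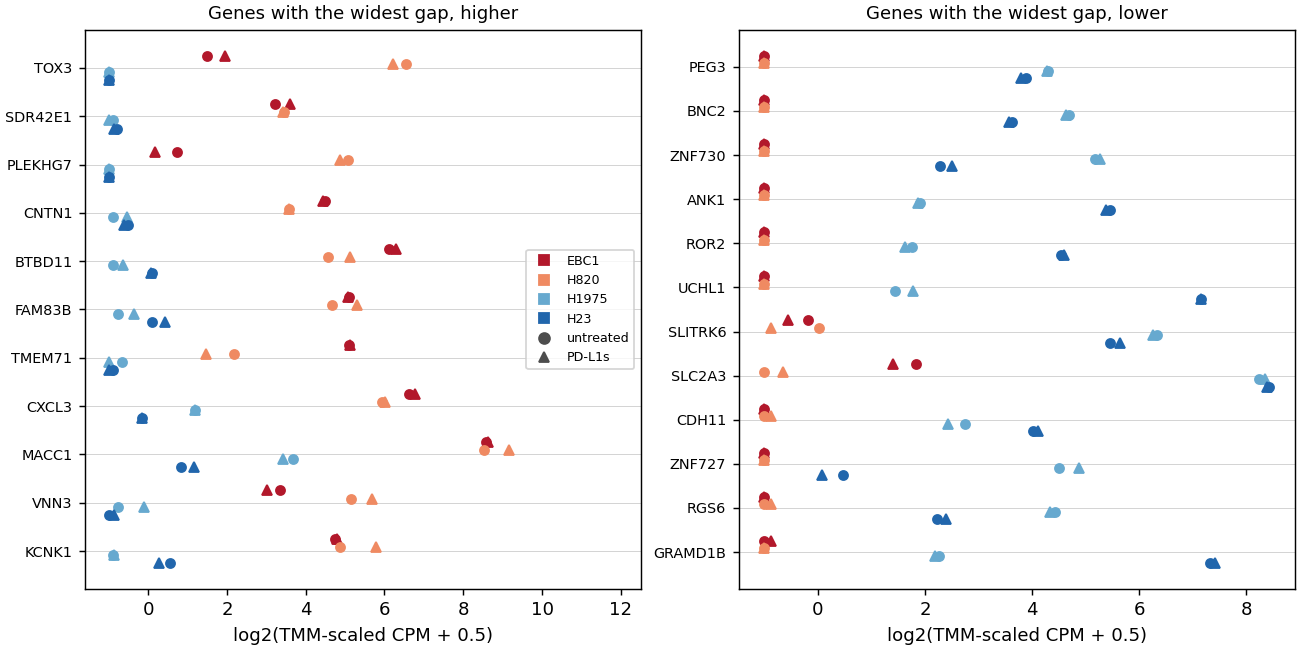
log2(TMM-scaled CPM + 0.5) in the 8 libraries for protein-coding genes among the 12 with the widest gap in each direction, coloured by line, with circles for untreated and triangles for PD-L1s libraries. Values at -1 are 0 counts; the 2 libraries of a line lie close together beside the distance between the pairs, and H820 and EBC1 differ widely in TOX3 (93.7 and 74.0 against 2.31 and 3.36 CPM).

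The genes around MET were taken by role, from lists written with earlier results of these data known. Of 12 proteases and inhibitors of HGF activation, 10 were called higher and 1 lower, but 2 separated the pairs, both upwards (16.7%). Beside this and the lists below, 9.18% of all protein-coding genes separated upwards and 9.85% downwards. Of all genes tested, 25.4% were called higher and 27.2% lower. ST14 (matriptase), which activates pro-HGF at the cell surface, was at 520 and 710 CPM in EBC1, at 262 and 292 in H820, 162 and 169 in H1975 and 0.522 and 0.402 in H23. SPINT2, an inhibitor of matriptase, hepsin and HGF activator, was at 422 and 605 CPM in EBC1, at 1234 and 1524 in H820, 176 and 164 in H1975 and 62.9 and 54.2 in H23. A same-strand transcript shares exons with SPINT2. PRSS8, SPINT1 and PLAU, a serine protease, an inhibitor and urokinase, were called higher without separating the pairs; they were low in H23 but not in H1975. The list's median log2 difference was 2.998, against -0.07 over all genes tested. Of 15 surface partners of MET, 2 were separately higher and 1 lower (13.3% and 6.67%). SEMA4D and its receptor PLXNB1, which can couple to MET, were higher by small gaps: SEMA4D was at 40.5 and 50 CPM in EBC1, at 76.9 and 89.5 in H820, 16.4 and 17.9 in H1975 and 35.8 and 33.0 in H23. For PLXNB1 the EBC1 untreated library, at 59.4 CPM, was next to the H1975 untreated one, at 59.2. Neither separated the pairs with library size alone as the scale. SEMA5A, a ligand of plexin B3, was lower, at 0 counts in EBC1 and H820 against 8.86 and 7.45 CPM in H1975 and 0.321 and 0.251 in H23. The H23 values rest on 8 and 5 counts, at least 2.62-fold above the floor, so its separation from H23 is near the detection limit.

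Of 34 adaptors and relays below the receptor, 6 separated upwards and 2 downwards, and 13 were called higher and 7 lower. GAB2, a docking protein related to GAB1, had the widest gap, with 43.0 and 50.7 CPM in EBC1, with 35.6 and 35.2 in H820, 5.46 and 4.81 in H1975 and 2.53 and 2.31 in H23 (nearest lines 6.89-fold apart, log2 difference 3.53 ± 0.13). GAB1, the main docking protein of MET, was at 74.0 and 67.7 CPM in EBC1, at 68.4 and 85.1 in H820, 39.4 and 40.8 in H1975 and 22.5 and 22.9 in H23. PTPN11 (SHP2), the phosphatase that GAB1 recruits to activate RAS, was at 547 and 541 CPM in EBC1, at 296 and 365 in H820, 151 and 158 in H1975 and 218 and 189 in H23. GRB2, the adaptor between receptors and RAS activation, was higher by a gap of 0.30. AKT2, a kinase of the PI3K pathway, was highest in H820, at 535 and 611 CPM, with 136 and 163 in EBC1 and 41.3 to 81.5 in the others. SHC1, another adaptor, and MAP2K2, the kinase MEK2, were lower: SHC1 was at 49.8 to 146 CPM in the higher-MET lines and 176 to 229 in the others. The share of separating members was 17.6% higher and 5.88% lower. With library size alone as the scale 4 were higher and 5 lower, and without the shallow libraries 11 and 2.

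Of 19 ligases, phosphatases and sorting proteins that restrain MET, 1 was higher, the phosphatase PTPRJ, at 148 and 181 CPM in EBC1, at 77.7 and 80.4 in H820, 56.2 and 53.6 in H1975 and 25.5 and 27.7 in H23. Without the shallow libraries 4 of these were higher. Of 20 output and feedback genes of MAP kinase, 8 were called higher and 6 lower, and DUSP4, an ERK phosphatase, alone separated the pairs, with 27.3 and 30.5 CPM in EBC1, with 50.3 and 31.9 in H820, 23.8 and 23.9 in H1975 and 12.6 and 14.2 in H23. The shares that separated upwards, 5.26% of the first list and 5.0% of the second, were near the 7.73% of all genes. Of 27 other receptor tyrosine kinases DDR1, a collagen receptor, was higher, and FGFR2 and IGF1R were lower (3.70% and 7.41%). IGF1R was at 47.5 and 56.2 CPM in EBC1, at 77.9 and 86.3 in H820, 116 and 121 in H1975 and 248 and 252 in H23.

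Of 17 genes known to be induced by HGF during invasion, 5 were separately higher and 1 lower (29.4% and 5.88%). LAMA3, a laminin chain of epithelial basement membranes, was at 468 and 475 CPM in EBC1, at 215 and 307 in H820, 128 and 127 in H1975 and 12.9 and 15.6 in H23. MMP7, matrilysin, was mainly an H820 gene, at 278 and 1049 CPM, with 6.34 and 5.29 in EBC1 and at most 0.352 in the others. PTGS2, the prostaglandin synthase COX-2, was at 15.6 and 16.7 CPM in EBC1, at 71.8 and 72.2 in H820 and 4.62 to 7.31 in the others. CXCL8 is described below. MMP9, a gelatinase, was lower, at 0.508 to 1.61 CPM in the higher-MET lines and 3.45 to 9.71 in the others.

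The ERBB ligand EREG and the chemokines CXCL1 and CXCL8 were high in EBC1 and H820 at nearly equal levels. Epiregulin, amphiregulin and betacellulin activate EGFR and its relatives. Of 9 such ligands tested, EREG, AREG and BTC separated the pairs upwards and none downwards (33.3% and 0%). EREG was at 280 and 309 CPM in EBC1, at 284 and 292 in H820, 20.7 and 21.3 in H1975, and 3.05 and 3.92 in H23. The higher-MET lines were nearly equal and 13.7-fold above H1975 (log2 difference 5.09 ± 0.13). BTC was at 9.41 and 10.8 CPM in EBC1, at 10.5 and 11.6 in H820, 3.19 and 4.62 in H1975 and 0.763 and 0.704 in H23. AREG was at 5.30 to 10.3 CPM against 0.352 to 1.70, and its counts are uncertain because of its near-copy AREGB. TGFA, HBEGF, EGF and the neuregulins did not separate the pairs; TGFA, for example, was highest in H1975, at 78.7 and 89.3 CPM.

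NF-kB is a family of transcription factors that inflammatory signals release from the inhibitor NFKBIA, and its targets include chemokines that attract neutrophils through the receptor CXCR2. Of 23 tested genes of this list, 19 were called higher and 2 lower. Of them 9 separated upwards (39.1%) and 1 downwards (4.35%), and the median log2 difference was 2.35. CXCL1 was at 171 and 183 CPM in EBC1, at 165 and 184 in H820, 12.7 and 12.4 in H1975 and 5.94 and 5.33 in H23 (nearest lines 13.8-fold apart, log2 difference 4.38 ± 0.12). CXCL3 was at 98.8 and 110 CPM in EBC1, at 60.5 and 63.7 in H820, 1.79 in both H1975 libraries and 0.402 in both H23 libraries. CXCL2 was at 46.7 to 70.3 CPM in the higher-MET lines, 18.4 and 23.4 in H1975 and 0.883 and 0.754 in H23. CXCL8, interleukin 8, was at 367 and 400 CPM in EBC1, at 336 and 400 in H820, 72.8 and 86.1 in H1975 and 6.18 and 10.2 in H23. In each of these 4 chemokines the 2 lower-MET lines also differed, H1975 above H23. LCN2, the iron-binding protein lipocalin 2, was at 818 and 872 CPM in EBC1, at 2867 and 3988 in H820, 197 and 217 in H1975, and 1.89 and 0.704 in H23. BIRC3, an inhibitor of apoptosis, was at 190 to 349 CPM against 49.3 to 58.9, with H23 and H1975 alike. Subunits and the inhibitor were higher by smaller gaps: RELB by 0.71, NFKBIA by 0.44 and NFKB1 by 0.42. IL1B, the cytokine interleukin 1 beta, was at 20.6 and 19.9 CPM in EBC1, at 32.9 and 65.9 in H820, 10.6 and 12.1 in H1975 and no more than 0.0803 in H23. CCL5, a T-cell chemokine, went the other way, at 0 to 0.576 CPM against 1.97 to 4.10. Without the shallow libraries 12 members were higher and 1 lower, and with library size alone as the scale 8 and 2.

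The promoters of these 4 chemokines are shown because the genes were high together and share a motif. The sequences are the 250 bases before the gene start in RefSeq (GRCh38.p14), written 5′ to 3′ on the strand of the gene; capitals mark GGAATTTCC, a kB-type motif, searched on both strands. They lie at chr4:73869143-73869392 (+ strand), chr4:74099196-74099445 (- strand), chr4:74038690-74038939 (- strand) and chr4:73740319-73740568 (+ strand).
CXCL1: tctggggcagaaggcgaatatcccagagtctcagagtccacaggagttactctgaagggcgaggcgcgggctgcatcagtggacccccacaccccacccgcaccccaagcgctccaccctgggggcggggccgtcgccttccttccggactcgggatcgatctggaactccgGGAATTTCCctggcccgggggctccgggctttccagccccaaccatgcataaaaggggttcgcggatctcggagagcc
CXCL2: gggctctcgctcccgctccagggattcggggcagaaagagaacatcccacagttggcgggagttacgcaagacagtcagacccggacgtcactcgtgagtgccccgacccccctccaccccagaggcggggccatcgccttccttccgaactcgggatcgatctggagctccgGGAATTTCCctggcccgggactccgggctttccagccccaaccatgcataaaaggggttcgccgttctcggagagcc
CXCL3: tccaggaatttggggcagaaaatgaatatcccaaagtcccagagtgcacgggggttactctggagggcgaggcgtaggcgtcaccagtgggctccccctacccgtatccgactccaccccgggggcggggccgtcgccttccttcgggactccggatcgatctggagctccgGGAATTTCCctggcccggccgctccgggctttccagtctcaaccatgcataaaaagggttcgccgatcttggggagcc
CXCL8: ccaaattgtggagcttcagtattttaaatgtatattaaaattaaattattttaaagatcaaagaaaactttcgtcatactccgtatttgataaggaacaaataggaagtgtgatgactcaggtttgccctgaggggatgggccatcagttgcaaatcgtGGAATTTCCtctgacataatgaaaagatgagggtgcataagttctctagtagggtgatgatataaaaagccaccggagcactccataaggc
The motif stood in 145 of 35116 such windows, 0.413%. Of the 23 tested members of the NF-kB list 18 were found in the promoter table, and 7 of them held the motif. Of the 8 found members that were higher in every EBC1 and H820 library 5 held it: CXCL1, CXCL2, CXCL3, NFKB1 and NFKBIA. The other 2 with the motif, CXCL5 and CXCL6, did not separate the pairs. The list was made of NF-kB targets and chemokines, and the 4 promoters were shown because they share the motif. Nothing is therefore read from how often it was found, and NF-kB activity was not tested. In CXCL1 and CXCL3 the motif began 78 bases before the start, in CXCL2 77 and in CXCL8 91, on the strand of the gene in all 4. The windows of CXCL1, CXCL2 and CXCL3 resemble each other, with 84% identical bases between CXCL1 and CXCL3, 78.8% between CXCL1 and CXCL2 and 78% between CXCL2 and CXCL3, so their shared motif is not independent. CXCL8 had 47.6% to 51.2% with them.

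EREG, AREG and BTC lie beside these chemokines, in a stretch of 1.28 Mb of chromosome 4 from RASSF6 to BTC (74437267 to 75719896, GRCh37), picked after the values were seen. Of its 13 tested protein-coding genes 9 separated upwards and 0 downwards: RASSF6, CXCL8, CXCL1, CXCL3, CXCL2, MTHFD2L, EREG, AREG and BTC. Of all protein-coding genes 9.18% separated upwards and 9.85% downwards, and of those on chromosome 4 24.0% and 3.26%. As the stretch was picked for its high members, nothing is read from its count. RASSF6, a member of the RAS-association family, was at 5.57 and 6.14 CPM in EBC1, at 86.4 and 111 in H820 and at most 0.654 in the others. MTHFD2L, a mitochondrial folate enzyme, differed little, at 10.6 to 14.9 CPM against 4.98 to 7.60. The stretch was not uniform. CXCL5 was at 1503 and 3234 CPM in H820 and CXCL6 at 859 and 1227, while EBC1 had at most 5.38 and 0.192 CPM of them, and EPGN and AREGB were under 1 CPM throughout.

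**Figure D3:**
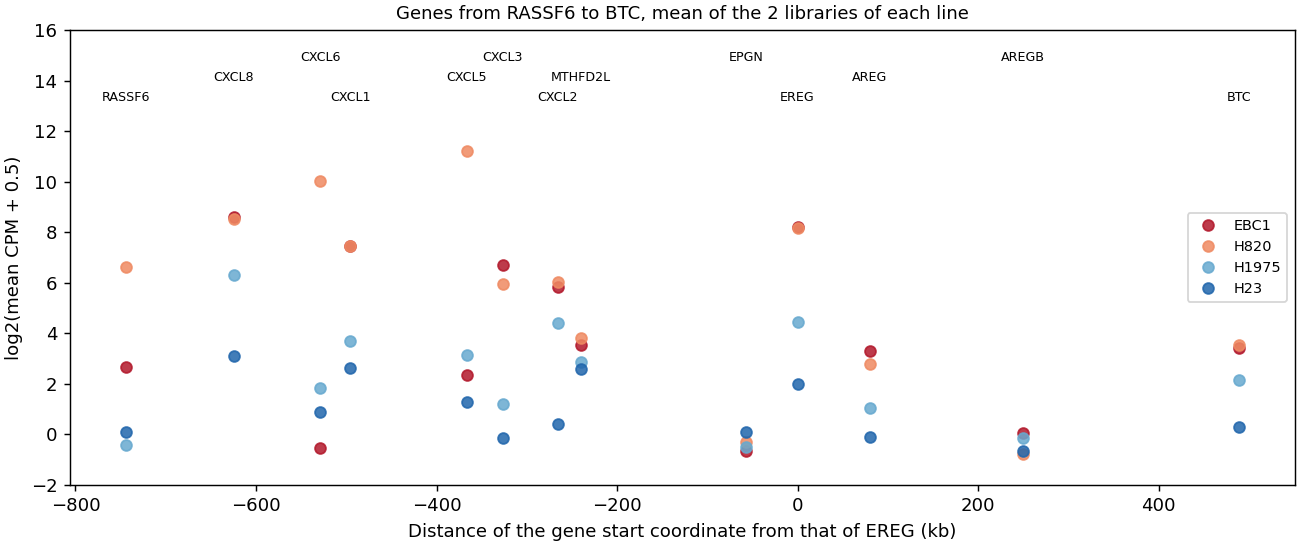
log2 of the mean CPM of the 2 libraries of each line plus 0.5, for the 13 protein-coding genes tested from RASSF6 to BTC, against the distance of each gene's start coordinate from that of EREG in kb. EBC1 and H820 coincide at CXCL8, CXCL1, EREG and BTC, above H1975 and H23, while CXCL5 and CXCL6 are high in H820 alone.

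NRF2 is a transcription factor that protects cells from oxidants and is held down by KEAP1. Of 20 of its targets 7 separated upwards and 0 downwards (35.0% and 0%), with a median log2 difference of 0.97. SLC7A11, the cystine importer for glutathione synthesis, was at 257 and 232 CPM in EBC1, at 169 and 78.0 in H820, 36.9 and 31.2 in H1975 and 44.8 and 52.7 in H23. AKR1C3, a carbonyl reductase, was at 40 and 48.8 CPM in EBC1, at 14.7 and 11.1 in H820, 3.71 and 3.25 in H1975 and 0.281 and 0.151 in H23. ME1, TALDO1 and PGD, which supply NADPH or pentose phosphates, were higher by gaps of 0.81, 0.76 and 0.75: TALDO1 was at 63.1 to 88.9 CPM against 31.6 to 40.1. TXNRD1 (thioredoxin reductase) and GCLC (glutathione synthesis) were higher by 0.41 and 0.23. KEAP1 itself, from the list of lung cancer drivers, was lower, at 26.3 and 36.8 CPM in EBC1, at 32.5 and 29.9 in H820, 57.0 and 51.9 in H1975 and 59.7 and 53.6 in H23 (nearest lines 1.72-fold apart). With library size alone as the scale 6 members of the list separated upwards and 0 downwards.

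Epithelial genes showed how calls and separation can part. Of 34, 31 were called higher and 3 lower, with a median log2 difference of 2.22, but 6 separated upwards (17.6%) and 1 downwards, since H1975 was as high as EBC1 and H820 in most. RAB25, a small GTPase of epithelial recycling, had the widest gap, at 21.5 and 28.7 CPM in EBC1, at 40.5 and 45.3 in H820, 2.84 and 3.06 in H1975 and 0.120 and 0 in H23. The epithelial transcription factors EHF, ELF3 and GRHL2 were higher: EHF was at 137 to 229 CPM in the higher-MET lines, 74.9 and 84.0 in H1975 and 0.402 and 0.352 in H23. ELF3 shares exons with a same-strand transcript. MAL2 and CDS1 were the others, and GRHL3, a factor of the skin barrier, was lower, at 0.576 to 1.86 CPM against 3.36 and 3.68 in H1975 and 32.6 and 30.5 in H23. Of 20 mesenchymal genes 13 were called lower and 2 higher, beside 27.2% and 25.4% of all genes tested. CDH11, ZEB2 and VIM separated downwards (15.0%, against 9.85% of all protein-coding genes). VIM, vimentin, was at 255 and 299 CPM in EBC1 and 1.69 and 2.28 in H820, against 442 and 446 in H1975 and 904 and 822 in H23. SNAI2, the repressor Slug, was the exception that was higher, at 19.4 and 16.9 CPM in EBC1, at 5.93 and 7.48 in H820, 4.41 and 5.09 in H1975 and 0.482 and 0.352 in H23. COL1A2 of the fibroblast markers was lower as well, at 0 to 0.134 CPM against 1.41 to 4.39, and no immune or endothelial marker separated the pairs.

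Of 13 checkpoint genes tested, 10 were called higher and 0 lower, and 5 separated upwards (38.5%), with a median log2 difference of 2.12. CD274, the gene of PD-L1, was at 12.7 and 12.8 CPM in EBC1, at 24.4 and 45.3 in H820, 9.30 and 11.8 in H1975 and 0.201 and 0.101 in H23. Its gap was 0.24, its nearest lines were 1.21-fold apart, and it did not separate the pairs with library size alone as the scale. NECTIN2, a ligand of TIGIT and DNAM-1, was at 77.2 and 127 CPM in EBC1, at 284 and 361 in H820, and 36.3 to 43.6 in the others. IDO1, which degrades tryptophan, was at 7.30 and 9.10 CPM in EBC1, at 24.6 and 33.5 in H820, 3.06 and 4.01 in H1975 and 0.361 and 0.302 in H23. ICOSLG, the ligand of ICOS, was at 36.3 to 90.4 CPM against 5.02 to 12.8, and shares exons with an overlapping gene. TNFRSF14 (HVEM) was at 16.8 to 31.8 CPM against 6.99 to 13.1. PDCD1, the gene of PD-1, was below the filter, with 0 to 4 counts in a library. Of 16 MHC class I genes HLA-C, TAP2 and B2M were higher and none was lower (18.8% and 0%). B2M was at 2279 and 2312 CPM in EBC1, at 645 and 933 in H820, 569 and 638 in H1975 and 148 and 153 in H23. Of 12 MHC class II genes HLA-DRB1 and HLA-DMB were higher (16.7%). Of all protein-coding genes 9.18% separated upwards and 9.85% downwards. The many alleles of HLA genes make their counts uncertain. Of 32 interferon-stimulated genes 12 were called higher and 18 lower, and TLR3 alone separated upwards and IFI6 alone downwards (3.1% each). With library size alone as the scale 1 was higher and 5 were lower. Without the shallow libraries 6 MHC class I, 3 class II and 7 checkpoint genes were higher.

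Sphere and differentiation genes went in both directions. Of 11 stem cell markers ALDH1A3, POU5F1, PROM1 and BMI1 separated upwards and ABCG2 downwards (36.4% and 9.09%). ALDH1A3, the retinaldehyde dehydrogenase used to mark lung cancer stem cells, was at 75.9 and 86.7 CPM in EBC1, at 513 and 276 in H820, 13.5 and 12.3 in H1975 and 3.57 and 4.02 in H23. POU5F1 reached 5.38 CPM and PROM1 6.88 CPM at most, and BMI1, which shares exons with COMMD3-BMI1, differed by a gap of 0.18. ABCG2, the drug efflux pump of side-population cells, was at 0.139 to 1.54 CPM against 8.47 to 10.2. Of 24 Notch and Wnt genes WNT7A and LEF1 separated upwards and TCF7, NKD1, ZNRF3, NRARP and NOTCH3 downwards (8.33% and 20.8%). NKD1 and ZNRF3 are feedback inhibitors of Wnt: NKD1 was at 0.511 to 2.15 CPM in the higher-MET lines, 51.6 and 52.1 in H1975 and 8.99 and 9.40 in H23. NOTCH3 was at 26.5 and 38.1 CPM in EBC1, at 95.9 and 118 in H820, 247 and 254 in H1975 and 131 and 128 in H23. AGR2, a chaperone of mucin folding, was at 80.1 and 89.4 CPM in EBC1, at 81.5 and 166 in H820, 10.5 in both H1975 libraries and 1.08 and 1.26 in H23. MUC4 and MUC20 were the other separating genes among 20 secretory genes (15.0% higher and 0% lower). Of 18 p53 targets BBC3 and BAX separated upwards and FDXR, XPC and CDKN1A downwards (11.1% and 16.7%). CDKN1A, the cell cycle inhibitor p21, was at 32.2 to 50.6 CPM against 105 and 102 in H1975 and 57.1 and 55.3 in H23. Of 20 G2/M genes 0 were called higher and 8 lower, of 20 G1/S genes 3 and 10, and of 15 YAP and TAZ targets 7 and 3. Over all genes tested 25.4% were called higher and 27.2% lower. UBE2C of the G2/M genes separated downwards, and 0 of the G1/S genes and 0 of the YAP and TAZ targets separated the pairs. This stands beside 7.73% of all genes upwards and 9.15% downwards. Without the shallow libraries 4 YAP and TAZ targets were higher.

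**Figure D4:**
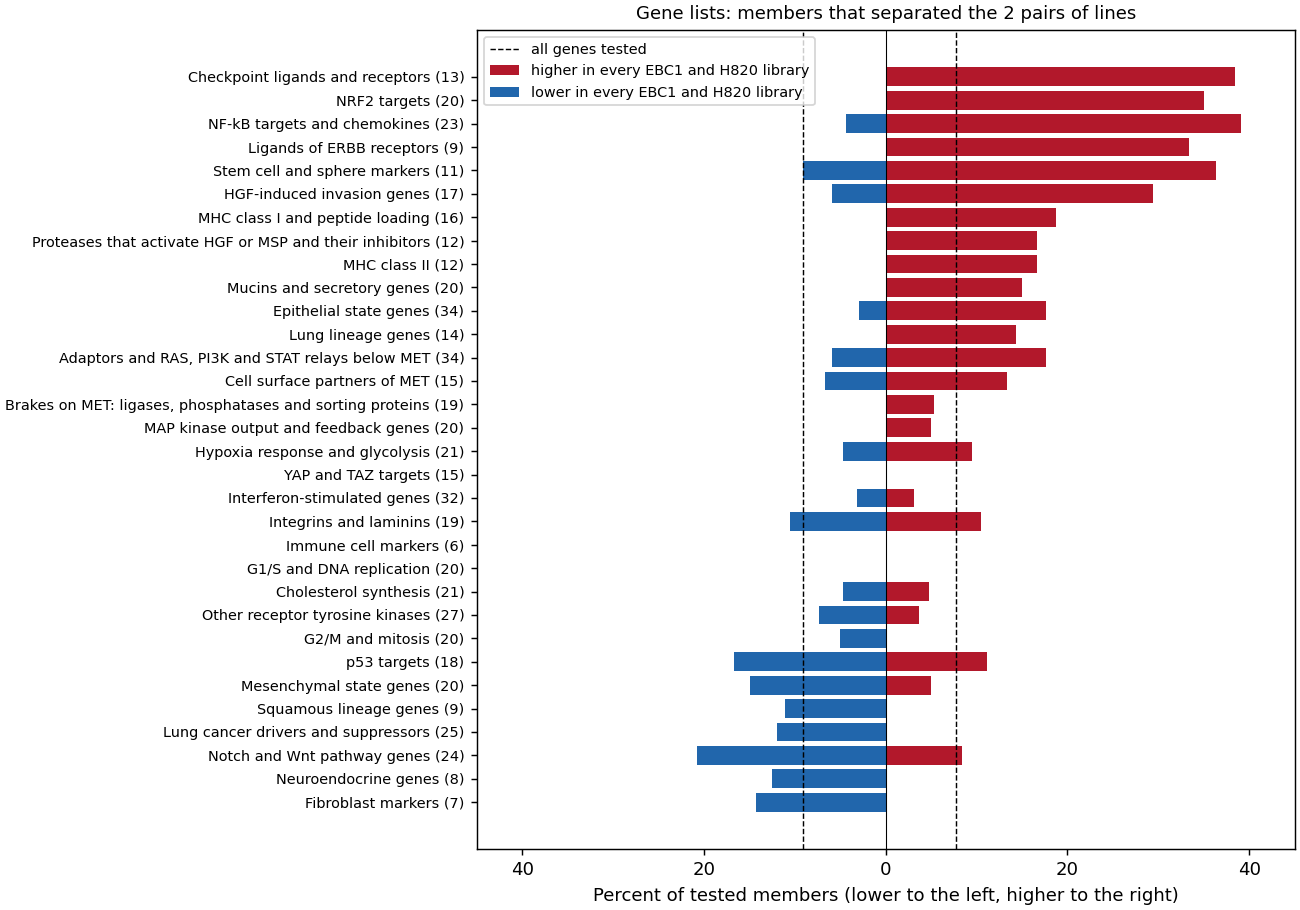
Percent of the tested members of each list (number in brackets, lists with at least 6 tested) that were called and higher (red, right) or lower (blue, left) in every EBC1 and H820 library; dashed lines give the same for all genes tested, 7.73% and 9.15%. The NF-kB, checkpoint, stem cell, NRF2, ERBB ligand and HGF-induced invasion lists reach furthest to the right, and the Notch and Wnt list furthest to the left.

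The separating genes were unevenly spread over the chromosomes. Of 583 protein-coding genes tested on chromosome 4, 24.0% were higher and 3.26% lower in every EBC1 and H820 library, against 9.18% and 9.85% of all. Chromosomes 8 (18.9% higher and 6.0% lower), 6 (15.0% and 4.32%) and 12 (13.9% and 5.92%) leaned the same way. So did chromosomes 21 (13.6% and 3.90%) and 11 (13.0% and 6.18%). Chromosomes 19 (6.76% higher and 21.3% lower), 22 (2.36% and 19.7%) and 20 (2.55% and 18.6%) leaned the other way. With library size alone as the scale, 15.4% of chromosome 4 genes were higher and 4.12% lower, and 3.86% and 29.9% of chromosome 19 genes. The medians by line show what each contributed: on chromosome 4 the median log2 difference was 0.57 and 0.93 for H820 against H23 and H1975, and -0.13 and 0.26 for EBC1. On chromosome 20 it was -1.01 and -0.62 for H820, and -0.37 and 0.03 for EBC1. Zinc finger genes, many of them repressors of transposons, stand in clusters on chromosome 19. Of 489 tested genes named ZNF with a number, 129 were lower and 16 higher (26.4% and 3.27%). On chromosome 19 the lower share was 33.6% of 241 ZNF genes and 18.3% of the 1001 other genes, and on other chromosomes 19.4% of 248 ZNF genes. Copy number was not measured.

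**Figure D5:**
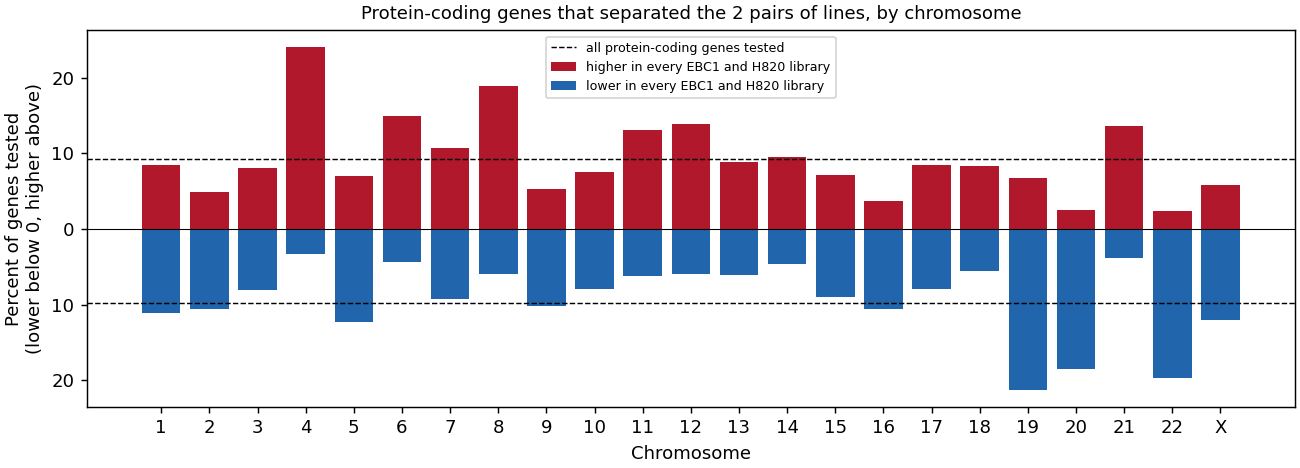
Percent of the protein-coding genes tested on each chromosome that were called and higher (red, upward) or lower (blue, downward) in every EBC1 and H820 library; dashed lines give 9.18% and 9.85% for all chromosomes together. Chromosomes 4 and 8 have the tallest upward bars, and 19, 20 and 22 the tallest downward bars.

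The response to PD-L1s was not used to group the lines, so its difference between the pairs was tested, as the interaction of treatment and pair in edgeR's quasi-likelihood test. Of 24185 genes 10 passed (0.0413%), 8 with a larger and 2 with a smaller treated to untreated ratio in EBC1 and H820, and 2131 had an unadjusted p under 0.05. DESeq2 called 14 and limma-voom 0. The count was 2088 without EBC1, 619 without H820 and 323 with no filter, 5 with RLE scaling, 2 at a minimum count of 50, and 0 with protein-coding genes only, where the histone, SPARC and CHI3L2 calls given below are lost. In EBC1 and H820 the treated library was also the deeper, so depth and response cannot be told apart in them. MET itself had log2 ratios of treated to untreated of 0.16 in EBC1, 0.54 in H820, 0.08 in H23 and 0.11 in H1975, and the difference of 0.26 ± 0.22 (SE) was not past the threshold (edgeR adjusted p = 0.779). CD274 differed by 0.24 ± 0.33 (edgeR adjusted p = 0.885), with 0.89 in H820 and 0.02 in EBC1. The early genes FOS, FOSB and EGR1, subunits of AP-1 and a growth-induced zinc finger factor, had higher values in the treated library of every line, and their response did not differ past the threshold between the pairs: FOSB had log2 ratios of 1.61 in EBC1, 3.08 in H820, 3.10 in H23 and 2.76 in H1975 (difference -0.75 ± 0.31, edgeR adjusted p = 0.521). For FOS the difference was -0.02 ± 0.41 (edgeR adjusted p = 1) and for EGR1 0.58 ± 0.48 (edgeR adjusted p = 0.763). These differences turned on which line was included. Without EBC1 the difference was 1.18 for FOS and 1.96 for EGR1. Without H820 it was -1.05 for FOS, -0.665 for EGR1 and -1.43 for FOSB. With a line left out, its pair has 1 library per treatment, so only the size of these differences is given. The counts above without EBC1 or without H820 have the same limit. No member of the list of MAP kinase output and feedback genes passed, among them LIF, a cytokine, with 0.91 ± 0.31 (edgeR adjusted p = 0.466).

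Most genes that passed rested on H820 or EBC1 alone. The replication-dependent histone genes HIST1H3G, HIST1H3F and HIST1H2BF were at 8.64, 7.11 and 4.40 CPM in untreated and 32.7, 29.6 and 20.1 CPM in treated H820, at most 0.0448 in EBC1, and 66.4 and 66.9, 44.3 and 50.2, and 53.4 and 50.3 in H23, and at 7.64 to 20 in H1975. Their differences in response were 1.95 ± 0.29, 2.15 ± 0.34 and 2.20 ± 0.33 on the log2 scale (edgeR adjusted p = 0.0201, 0.0214 and 0.0175). SPARC, a matrix glycoprotein (1.95 ± 0.32, edgeR adjusted p = 0.0323), and CHI3L2, a chitinase-like protein (1.75 ± 0.31, edgeR adjusted p = 0.0431), were likewise higher in treated H820, at 22.4 against 5.93 and 74.7 against 23 CPM. MT-ND2, a mitochondrial subunit of respiratory complex I with a near-identical nuclear copy, went from 1424 to 443 CPM in H820 and from 381 to 191 in EBC1, with 766 and 688 in H23 and 730 and 919 in H1975 (-1.44 ± 0.24, edgeR adjusted p = 0.033). Its call was also lost with protein-coding genes only. RP11-212P7.3, a transcript that shares exons with HILPDA and METTL2B, was the one called gene among the higher 8 with similar ratios in both lines, 0.98 in EBC1 and 1.11 in H820, against -0.15 in H23 and -0.02 in H1975 (1.14 ± 0.19, edgeR adjusted p = 0.0323). Its reads cannot be told from those of its neighbours. The U3 copies SNORD3C and RP11-160E2.6 were at 1.92 CPM in untreated and 332 and 334 CPM in treated EBC1, but at 271 to 357 CPM in both H1975 libraries, and since near-identical copies share their reads these values are uncertain.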

How the data were processed

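RNA of 8 libraries was sequenced with a stranded total RNA kit. The authors deposited raw counts of read pairs per gene: the aligner was STAR 2.7.3a on GRCh37 and the counter featureCounts (Subread 2.0.0), per the submitters' processing notes. The annotation was GENCODE 28 lifted to GRCh37, counting was by strand, and a pair over several genes counted for each, per the file headers, so genes with overlapping exons share reads. No file had values of other samples.

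Counts were fitted with edgeR 4.0.16 in R 4.3.3 (TMM, filterByExpr with a minimum count of 10, line and treatment as terms, Benjamini-Hochberg over 24185 of 60106 genes, threshold 0.05). The contrast was the mean of EBC1 and H820 minus that of H23 and H1975. A line has 2 libraries, which differ in treatment. Nothing in the labels says that libraries came from separate cultures beyond that, so p-values measure the spread between these libraries. Log2 ratios within a line used a prior count of 5. In simulated data for the pair contrast, 99% of genes changed 2-fold and 100% of those changed 4-fold were called, and for the difference in response 42% and 100%. In these simulations 18 and 10 unchanged genes were called as well. Apart from the 200 changed genes, the simulated lines had the same mean level of each gene. The real lines differ in many genes, so these shares do not give the sensitivity for the real contrast. Alternatives used DESeq2 1.42.0 and limma 3.58.1.

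The members, the 34 gene lists and the tests were chosen with earlier results of these data known. Named genes were MET, MST1R, HGF, EGFR, CD274 and PDCD1, the 12 protein-coding genes with the widest gap in each direction and at least 10 CPM in the higher pair, up to 4 separating members per list and direction (or 2 by size of difference where there were none), up to 8 called genes per direction for the response, and the 2 genes on each side of the separation limit. Other members are named where a list needs them, and some genes that the rule names are not reported here. FOS, FOSB, EGR1 and LIF were chosen after their values were seen. Because genes were picked by their order in the pair contrast, no p-value is given for them there.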

Additional observations from a re-analysis of the deposited data

Results flagged for a closer look

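The response to PD-L1s differed between the pairs of lines, by the interaction test of edgeR, for 10 genes. The difference in log2 ratio, EBC1 and H820 minus H23 and H1975, was 7.60 for SNORD3C, 7.35 for RP11-160E2.6, 2.20 for HIST1H2BF, 2.15 for HIST1H3F, 1.95 for SPARC, 1.95 for HIST1H3G, 1.75 for CHI3L2, 1.14 for RP11-212P7.3, -3.18 for RP11-316P21.1 and -1.44 for MT-ND2. RP11-316P21.1, annotated as a processed pseudogene, was at 72.5 CPM in untreated and 3.16 in treated H820 and at 5.76 and 2.11 in EBC1. The deeper library was the treated one in both lines, and its part in these differences was not tested.

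Over the named separating genes, 221 groups of 4 libraries were examined. In 14 of them a library stood apart from the other 3 of its pair of lines. A chance rate of about 1 in 20 would need independent values from a common distribution. Each group here joined libraries of different lines, for genes picked by their order. That rate therefore does not apply, and nothing is read from the number of groups flagged. The gap to the nearest library, as a share of the range, was 0.859 for MACC1, 0.87 for KCNK1, 0.84 for BIRC3, 0.874 for NDRG1 and 0.85 for AGR2 in EBC1 and H820, in each of which treated H820 was the high library. For EHF it was 0.84 and for KDM3A 0.903, with untreated H820 the low library, at 137 and 88.9 CPM. In CDH11, RGS6, GRAMD1B and COL1A2 it was 1.0, because 3 of the libraries had 0 counts. In H23 and H1975 it was 0.842 for ZEB2, where treated H23 was low, 0.842 for BIRC3, where untreated H1975 was low, and 1.0 for POU5F1, where untreated H23 had counts and the others 0.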

How the results depend on the processing

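Under the other scalings, filters and tools applied to all 8 libraries the counts of separating genes stayed within 1.5 times of 1870 and 2212, except that library size as the only scale gave 1144 higher genes. Leaving out 1 library gave 10657 to 13384 called, 1773 to 2395 higher and 2333 to 2733 lower genes. With the 2 shallow libraries left out together, an alternative added after seeing the data, 2881 genes were higher. Asking for all 4 differences between lines to have the same sign, in place of all libraries, gave 2830 higher and 3417 lower genes, and asking for all over 1 gave 625 and 1022. With the line as the replicate, the treated libraries only or the untreated libraries only, edgeR called 0 genes (957, 922 and 742 at an unadjusted p under 0.05), so none was called higher (0) or lower (0); no other tool was run for these. The MET ratio between the nearest libraries was 3.177 with the line as the replicate, 3.327 in treated libraries, 3.328 without both shallow libraries, and 2.235 to 3.326 with 1 library left out. For the difference in response, 5 genes were called with RLE scaling, 2 at a minimum count of 50, 323 with no filter, 0 with protein-coding genes alone and 0 by limma-voom, with 2088 without EBC1, 619 without H820, 17 without H23 and 22 without H1975. The counts without a line come from fits in which its pair has 1 library per treatment. The causes were not tested.

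The pair difference (log2) of EGFR reversed to -0.26, -0.226 and -0.383 with the line as the replicate, in treated and in untreated libraries, that of AMOTL1 to 0.373, 0.468 and 0.14, and that of KDR to 0.059 in treated libraries. Differences in response reversed for CD274 (-0.30), EGR1 (-0.665) and PLEKHG4B (0.053) without H820, and for FOS with no filter (0.071), DESeq2 (0.041), without EBC1 (1.18) and without H23 (0.0023). Fits without a line leave its pair with 1 library per treatment, so only the size of the difference is given for them. Genes of low count are limited by the shallow libraries, where 3 counts correspond to more CPM than in the others.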
